A study of Mus musculus with 2 samples.

Results

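Genes of cholesterol and fatty acid synthesis were compared between G1E-ER-GATA-1 cells that received LMO2 siRNA and the same cells that received control siRNA. The cells are a mouse erythroid line labelled as GATA-1-null, and both groups received estradiol for 24 h, which switches on a GATA-1 fusion protein. The list holds 36 genes, of which 18 encode enzymes of cholesterol synthesis, 7 encode sterol sensors and sterol transport proteins, and 11 make, desaturate or elongate fatty acids. All 36 had probes on the array, and 35 were measured, among 13948 measured genes in all. With LMO2 siRNA, 4 members rose: Elovl5, a fatty acid elongase, Me1, the cytosolic malic enzyme that supplies NADPH, Acss2, which makes acetyl-CoA from acetate, and Tm7sf2, a sterol reductase. In the same cells 3 members fell: Insig2, which holds the SREBP regulators in the endoplasmic reticulum, and the cholesterol synthesis enzymes Cyp51 and Mvk. By the rule given below, 11.4% of measured members rose and 8.57% fell, against 6.37% and 2.4% of all genes. The falls of Insig2, Cyp51 and Mvk were 1.8-fold or less. Their other probes read closer to 0, as did those of Elovl5, Me1 and Acss2, while Tm7sf2 has 1 probe. With median centring in place of loess, which put the median of all genes at -0.41 on the log2 scale, Acss2 and Tm7sf2 read below 0 but above that median.

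Both pathways start from acetyl-CoA. Cholesterol synthesis builds mevalonate and isoprenoid units, joins them to squalene and closes and trims the sterol ring, while fatty acid synthase extends a chain that desaturases and elongases then modify. When sterol in the endoplasmic reticulum is low, SCAP carries the SREBP transcription factors to the Golgi, where they are cleaved and go on to activate genes of both pathways, and INSIG proteins block that step when sterol is plentiful. SREBPs act at sterol regulatory elements, often beside a site for NF-Y. In erythroid maturation cells dismantle organelles and remodel their membrane, of which cholesterol is a main lipid.

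The cells tested received LMO2 siRNA and estradiol for 24 h, and their controls received control siRNA and estradiol for 24 h. Both are G1E-ER-GATA-1, a mouse erythroid line that lacks GATA-1, labelled as GATA-1-null, and carries a GATA-1 protein fused to an estrogen receptor domain that estradiol switches on. It is 1 cell line, and the labels do not give the share of cells that took up siRNA. LMO2 is an adaptor that links DNA-binding factors, GATA-1 among them, in erythroid cells. RNA of both kinds of cell was hybridised together on each of 2 two-colour Agilent arrays, with LMO2 siRNA in Cy3 and control siRNA in Cy5 on both, so dye and siRNA effects cannot be told apart. The arrays are numbered as replicates in the labels, which name no separate cultures, so p-values measure the spread between these arrays, which may be technical, and 2 arrays limit the precision of every value.

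Values are normalised intensities of 1 array channel, and log2 ratios of LMO2 siRNA over control siRNA as mean ± SD (n = 2 arrays). "Called" means an adjusted p under 0.05 in limma, fitted over all 13948 genes. "Rose" and "fell" are kept for unsaturated genes called in 1 direction with 3 sets of values: the loess-normalised ratios, the same with the scanner's correction for position on the array, and the scanner's own processed signals. That rule was set after earlier results of these data were seen. A gene is represented by its brightest probe, and levels are not compared between genes. In the LMO2 siRNA channel 55.8% to 62.9% of spots were well above background, against 60.4% to 68.2% in the control channel. Lmo2 itself read 1735 and 1573 units with LMO2 siRNA, against 6114 and 6361 with control siRNA, and fell by 1.92 ± 0.14 on the log2 scale (limma adjusted p = 3.08e-29). Of the 10 erythroid markers all were measured, with a summed intensity of 288523 and 273582 with LMO2 siRNA against 194965 and 187489 with control siRNA, where Hbb-bt and Hba-a1 were saturated. Without these, the other 8 summed to 99406 and 87778 units with LMO2 siRNA against 104883 and 96031 units with control siRNA. Of the 10, 3 were called higher and 4 lower, with a median log2 ratio of -0.07. The labels also call the cells ES cells, but Nanog, Sox2, Zfp42 and Fgf4 were not well above background, and the 4 measured ES cell markers of 8 summed to 475 and 450 units with LMO2 siRNA against 432 and 413 units with control siRNA.

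Of the 35 measured members, limma called 8 higher and 19 lower with LMO2 siRNA, and 8 were not called. The 22.9% of members called higher lie near the 24.9% of all genes called higher, while 54.3% of members were called lower, against 27.7% of all genes. The log2 ratio was below 0 on both arrays for 22 members, or 62.9%, against 44.3% of all genes. It was above 0 on both arrays for 10 members, or 28.6%, against 38% of all genes. The median log2 ratio of members was -0.16, against -0.02 for all genes. By the rule of 3 sets of values, 4 members (11.4%) rose and 3 (8.57%) fell, where 6.37% of all genes rose and 2.4% fell. The share called lower was smaller with position correction, where 10 members (28.6%) were called lower and 5 (14.3%) higher, against 20.5% and 24.1% of all genes, and the median was -0.08 against -0.01. In the processed signals 3 members were called lower and 4 higher, against backgrounds of 3.38% and 8.23%. These are counts of a list chosen with results of these data known, and no test of the list as a whole was made. In bulk RNA, a change in the share of cells of a kind and a change in RNA per cell cannot be told apart.

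**Figure D1:**
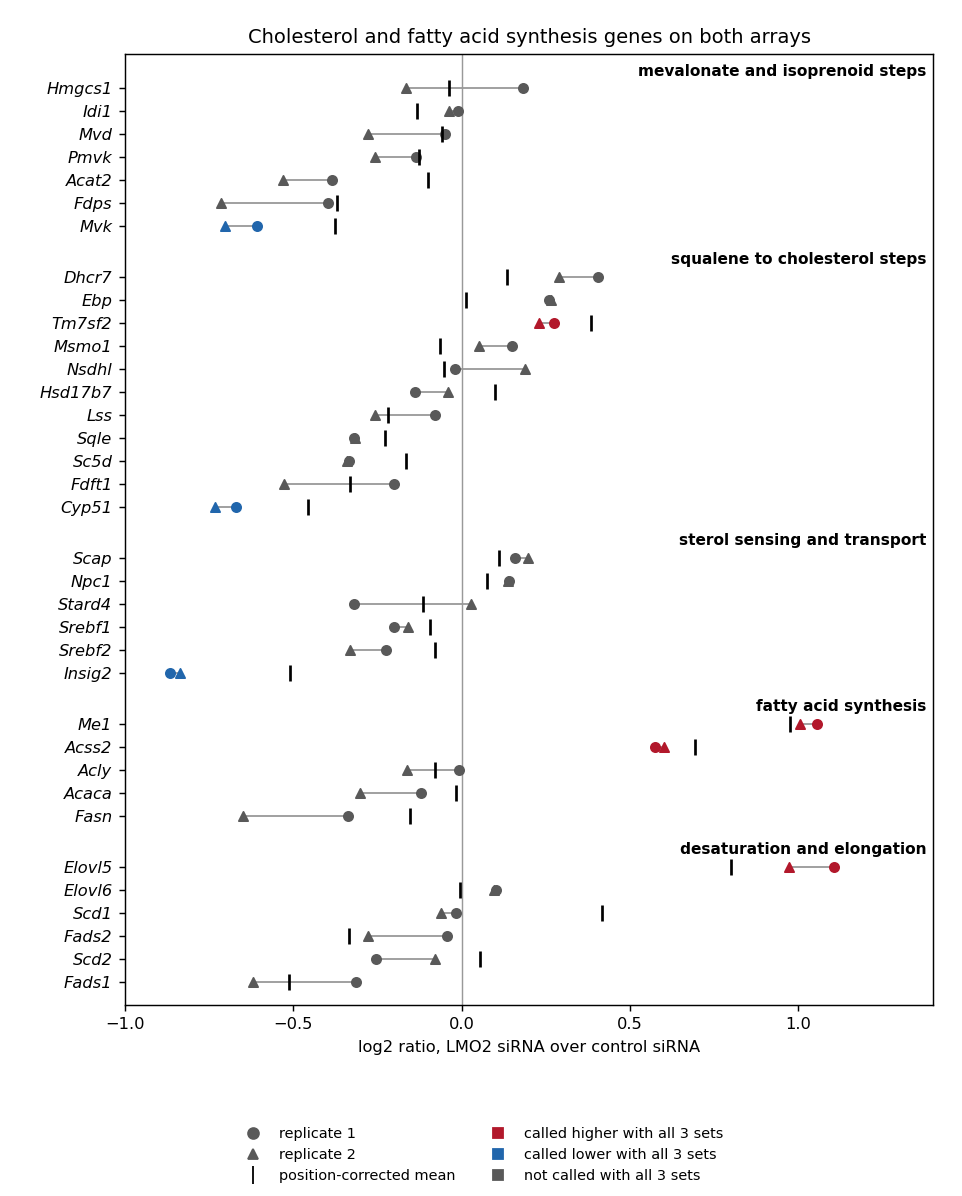
Log2 ratio of LMO2 siRNA over control siRNA for the 35 measured members, by role, with a circle for replicate 1, a triangle for replicate 2 and a bar for the position-corrected mean. Red genes were called higher and blue genes lower with all 3 sets of values; Elovl5, Me1 and Acss2 lie to the right of the rest on both arrays, and Insig2, Cyp51 and Mvk are among the leftmost.

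Elovl5, 1 of the 4 members that rose, adds carbons to polyunsaturated fatty acids. Elovl5 read 5333 and 4886 units with LMO2 siRNA, against 2480 and 2491 units with control siRNA. Both LMO2 siRNA values lay above both control values, and the log2 ratio was 1.04 ± 0.09, a 2.05-fold rise (limma adjusted p = 6.03e-20), with 0.80 after position correction and 0.84 in processed signals. Its other probe read 0.77 ± 0.18. For the members that rose or fell, which were picked by their calls, a lack of overlap between the channels is no separate support. Lack of overlap was not counted over all genes.

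Me1, whose malic enzyme yields NADPH for lipid synthesis, read 240 and 242 units with LMO2 siRNA, against 115 and 121 units with control siRNA. The groups did not overlap, and the log2 ratio was 1.03 ± 0.03, or 2.04-fold (limma adjusted p = 5.18e-20), with 0.97 after position correction. In the processed signals it was 1.67, more than 1.5 times as large, and this is a dim probe. The other Me1 probe read 0.48 ± 0.01. Elovl5 and Me1 were the members changed by 1.5-fold or more on both arrays in all 3 sets of values.

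Acss2, which activates acetate to acetyl-CoA, read 7020 and 7944 units with LMO2 siRNA, against 4713 and 5235 units with control siRNA. The groups did not overlap, and the log2 ratio was 0.59 ± 0.02, or 1.5-fold (limma adjusted p = 4.62e-12), with 0.69 after position correction and 0.72 in processed signals. Its 3 other probes read 0.03, 0.19 and 0.12. With position correction those probes read 0.38, 0.24 and 0.13, so all 4 lay above 0. The ratio of Acss2 was -0.11 with median centring in place of loess, where the median of all genes was -0.41.

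Tm7sf2 encodes a C14 sterol reductase of late cholesterol synthesis. It read 806 and 764 units with LMO2 siRNA, against 666 and 651 units with control siRNA, with no overlap between the groups. The log2 ratio was 0.25 ± 0.03 (limma adjusted p = 2.04e-04), and 0.38 and 0.43 with position correction and in processed signals, which are more than 1.5 times as large. With median centring it was -0.29, 0.12 above the median of all genes. Its processed-signal adjusted p of 0.045 in limma was close to the threshold, and Tm7sf2 missed the call when processed signals were centred over all spots. It has 1 probe.

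Insig2, 1 of the 3 members that fell, read 2366 and 2003 units with LMO2 siRNA, against 4313 and 3576 units with control siRNA, and the groups did not overlap. The log2 ratio was -0.85 ± 0.02, or 1.8-fold lower (limma adjusted p = 4.11e-17), and the position-corrected ratio of -0.51 and the processed-signal ratio of -0.52 were smaller by more than 1.5 times. A dimmer Insig2 probe, annotated to another transcript of the gene, read 0.08 ± 0.02 without position correction and -0.16 with it.

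Cyp51 encodes the lanosterol 14-alpha-demethylase, which starts the removal of methyl groups from lanosterol. It read 1113 and 946 units with LMO2 siRNA, against 1770 and 1573 units with control siRNA, again without overlap. The log2 ratio was -0.70 ± 0.04, or 1.63-fold lower (limma adjusted p = 2.65e-14). It was -0.49 in processed signals and -0.46, smaller by more than 1.5 times, after position correction. Its other probes read -0.03 ± 0.21 and -0.30 ± 0.21, and -0.19 and -0.22 with position correction.

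Mvk encodes mevalonate kinase, which phosphorylates mevalonate. It read 778 and 655 units with LMO2 siRNA, against 1187 and 1066 units with control siRNA, and the groups did not overlap. The log2 ratio was -0.66 ± 0.07, or 1.58-fold lower (limma adjusted p = 2.28e-13). It was -0.38 after position correction and -0.43 in processed signals, both smaller by more than 1.5 times. A second Mvk probe annotated to the same transcript read 631 and 567 units with LMO2 siRNA, against 593 and 595 units with control siRNA. Its log2 ratio was 0.01 ± 0.11, so the 2 probes of Mvk did not show the same difference. With position correction that second probe read -0.13. The limma adjusted p in processed signals was 0.044 for Insig2, 0.039 for Cyp51 and 0.045 for Mvk, all close to the threshold.

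**Figure D2:**
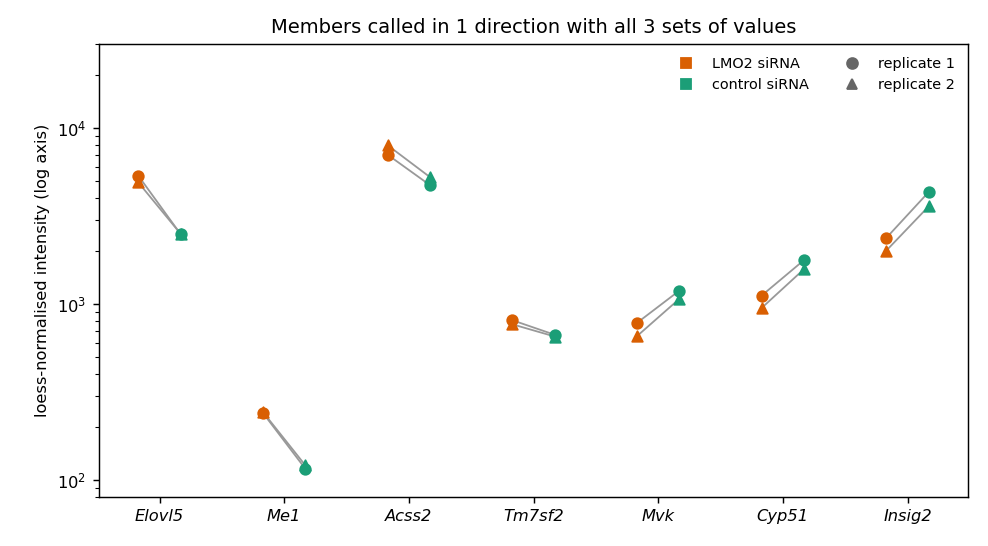
Loess-normalised intensity (log axis) of the 7 members called in 1 direction with all 3 sets of values, with LMO2 siRNA left of control siRNA for each gene and a line joining the channels of 1 array. In each gene both arrays slope the same way, downwards to control for Elovl5, Me1, Acss2 and Tm7sf2 and upwards for Mvk, Cyp51 and Insig2.

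Upstream sequence is given for 6 of these genes, because a short motif recurs in it. It is also given for Hmgcs1, the member with a match to the sterol element as spelled below. Each run is 150 bases ending at the base before the annotated gene start, 5′ to 3′ on the gene's strand, from RefSeq on GRCm38.p6. Capitals mark the NF-Y box (CCAAT, or ATTGG on the opposite strand) and, in Hmgcs1, also the sterol element TCACNCCAC.
Elovl5, chr9:77917215-77917364, plus strand: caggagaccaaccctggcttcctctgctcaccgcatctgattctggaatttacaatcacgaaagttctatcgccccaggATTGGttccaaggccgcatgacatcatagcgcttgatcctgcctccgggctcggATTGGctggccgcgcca
Acss2, chr2:155517893-155518042, plus strand: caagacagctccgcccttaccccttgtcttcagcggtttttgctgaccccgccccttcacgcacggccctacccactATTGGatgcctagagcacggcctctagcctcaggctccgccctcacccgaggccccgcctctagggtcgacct
Tm7sf2, chr19:6067851-6068000, minus strand: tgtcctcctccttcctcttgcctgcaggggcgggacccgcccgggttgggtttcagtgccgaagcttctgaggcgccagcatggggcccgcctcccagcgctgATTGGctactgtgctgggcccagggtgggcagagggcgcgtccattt
Cyp51, chr5:4104698-4104847, minus strand: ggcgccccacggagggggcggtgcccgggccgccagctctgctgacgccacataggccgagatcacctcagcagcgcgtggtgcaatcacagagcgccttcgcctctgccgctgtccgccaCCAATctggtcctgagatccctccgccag
Mvk, chr5:114444119-114444268, plus strand: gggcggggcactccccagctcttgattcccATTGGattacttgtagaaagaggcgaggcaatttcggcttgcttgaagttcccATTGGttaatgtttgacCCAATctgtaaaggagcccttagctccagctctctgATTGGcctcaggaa
Insig2, chr1:121332590-121332739, minus strand: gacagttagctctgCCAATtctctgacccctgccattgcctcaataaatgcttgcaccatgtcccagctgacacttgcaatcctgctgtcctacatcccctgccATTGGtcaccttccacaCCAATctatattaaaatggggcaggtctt
Hmgcs1, chr13:119690201-119690350, plus strand: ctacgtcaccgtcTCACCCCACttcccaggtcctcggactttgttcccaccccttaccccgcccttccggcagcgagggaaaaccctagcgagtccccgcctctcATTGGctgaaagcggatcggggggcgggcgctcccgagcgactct
These motifs and the GATA motif AGATAA were looked for on both strands in the 250 bases upstream of each gene start, and any of a gene's starts could hold them. Insig2 has 3 annotated starts, of which the 1 shown held the box. Of 28 members with an upstream sequence, 22 (78.6%) held an NF-Y box, against 37.5% of 27025 genes in the table and 39.5% of its 17492 protein-coding genes. The box was in all 4 members that rose and all 3 that fell, and in 14 of 20 other measured members, besides Insig1. In Me1 it lay at -208 from 1 of 2 starts, outside the length shown for the others. The sterol element was in 1 of the 28 members (1.22% of all genes), and the GATA motif in 0 of them, against 11.4% of all genes. A match is a run of letters and not a site shown to be bound. Other spellings of these motifs and sequence further upstream were not searched, so a gene without a match may still hold a site. Fdps, Fdft1, Sqle, Stard4, Npc1, Scd1, Scd2 and Fads1 are named only.

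In the mevalonate and isoprenoid steps, limma called 5 of 7 members lower and 2 were not called, where 27.7% of all genes were called lower. The median log2 ratio of these members was -0.20, and Mvk fell. Fdps, which makes farnesyl diphosphate, read 15580 and 12529 units with LMO2 siRNA, against 20515 and 20565 units with control siRNA. Its log2 ratio was -0.56 ± 0.22, and a dimmer Fdps probe read -1.14 ± 0.09. Fdps was called lower with position correction (-0.37) but missed the threshold in processed signals (-0.33, limma adjusted p = 0.11). Acat2, which condenses acetyl-CoA, was called lower at -0.46 ± 0.10 but read -0.10 with position correction. Pmvk (-0.20 ± 0.09) and Mvd (-0.16 ± 0.16), which carry mevalonate on to isopentenyl diphosphate, were called lower in the loess-normalised ratios and with neither of the other sets. Idi1, the isomerase of that product, read -0.02 ± 0.02 and was not called. Hmgcs1, which makes HMG-CoA, differed in sign between the arrays, at 0.18 and -0.17, and was not called.

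In the steps from squalene to cholesterol, limma called 5 of 11 members lower and 3 higher and left 3 uncalled. The shares of all genes called were 27.7% lower and 24.9% higher. The median of these 11 members was -0.09. Besides Cyp51, the lower calls were Fdft1, Sqle, Lss and Sc5d, all of which were also called with position correction but not in processed signals. Fdft1, the squalene synthase, read 2557 and 2162 units with LMO2 siRNA, against 2942 and 3116 units with control siRNA, and its log2 ratio was -0.36 ± 0.23. Sqle, the squalene epoxidase, read 5447 and 5078 units with LMO2 siRNA, against 6797 and 6328 units with control siRNA. The arrays were nearly equal for Sqle, with a log2 ratio of -0.32 on each and -0.23 after position correction. Lss, which closes the sterol ring, had a log2 ratio of -0.17 ± 0.13, with other probes at 0.22 and -0.57. Sc5d, a sterol desaturase, read -0.34 ± 0.0048, and -0.17 with position correction.

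Besides Tm7sf2, the higher calls were Dhcr7 and Ebp, late enzymes of the pathway. Dhcr7, which reduces 7-dehydrocholesterol, had a log2 ratio of 0.35 ± 0.08, and 0.14 with position correction, where it was not called. Ebp, a sterol isomerase, had 0.26 ± 0.0050, and 0.01 with position correction. With median centring the ratios were -0.32 for Dhcr7 and -0.49 for Ebp, where the median of all genes was -0.41. Msmo1 (0.10 ± 0.07), Nsdhl (0.08 ± 0.15) and Hsd17b7 (-0.09 ± 0.07), which remove and reduce groups of the sterol ring, were not called. Over the 18 cholesterol synthesis enzymes together, 10 were called lower, 3 higher and 5 neither, against 27.7% of all genes lower and 24.9% higher. The median of the enzymes was -0.17 (-0.11 after position correction and -0.09 in processed signals).

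Among sterol sensors and transport proteins, 4 of 6 measured members were called lower and 2 higher, against 27.7% and 24.9% of all genes. Of these members, Insig2 fell. Insig1, the other INSIG gene, was not well above background in either channel of either array with both of its probes. Srebf2, which encodes the SREBP that acts mainly on cholesterol genes, read 24230 and 21785 units with LMO2 siRNA, against 28328 and 27435 units with control siRNA. Its log2 ratio was -0.28 ± 0.08 but -0.08 with position correction, and its 3 dimmer probes read 0.03, 0.42 and 0.06, so the mean over probes was 0.06. Srebf1, whose SREBP acts more on fatty acid genes, had a log2 ratio of -0.18 ± 0.03, and -0.09 with position correction. Scap, the SREBP escort, was called higher at 0.18 ± 0.03, and Npc1, which moves cholesterol out of lysosomes, at 0.14 ± 0.0027. Their ratios with median centring were -0.48 and -0.22, where the median of all genes was -0.41. Stard4, a sterol carrier, was called lower at -0.15 ± 0.25 although it read -0.32 on replicate 1 and 0.03 on replicate 2. With position correction these 5 genes lay between -0.11 and 0.11 and were not called.

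In fatty acid synthesis, Me1 and Acss2 rose, 2 of 5 members were called lower and Acly was not called. The shares of all genes called were 27.7% lower and 24.9% higher. Fasn, the fatty acid synthase, read 17953 and 13668 units with LMO2 siRNA, against 22669 and 21432 units with control siRNA. The log2 ratio was -0.49 ± 0.22, but Fasn was not called after position correction (-0.15) or in processed signals (-0.11). Acaca, the acetyl-CoA carboxylase that makes malonyl-CoA, had -0.21 ± 0.13 and -0.02 with position correction, and its 3 other probes lay between -0.05 and 0.10. Acly, which makes acetyl-CoA from citrate, read -0.09 ± 0.11.

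Among desaturases and elongases, Elovl5 rose, 3 of 6 members were called lower and 2 were not called. The shares of all genes called were 27.7% lower and 24.9% higher. Fads1, the delta-5 desaturase, read 2266 and 1880 units with LMO2 siRNA, against 2817 and 2891 units with control siRNA. Its log2 ratio was -0.47 ± 0.22, and -0.51 in both other sets. Fads1 missed the call in processed signals (limma adjusted p = 0.068). Fads2, the delta-6 desaturase that acts before Elovl5 and Fads1 on polyunsaturated fatty acids, had -0.16 ± 0.17, and -0.34 with position correction. Fads1 and Fads2 thus lay below 0 in all 3 sets of values, and Elovl5 above 0. Scd2, a stearoyl-CoA desaturase, had -0.17 ± 0.12, but 0.05 with position correction and 0.08 in processed signals. Scd1, another, was dim at 78 and 75 units with LMO2 siRNA, against 79 and 78 units with control siRNA, and its ratio was -0.04, 0.42 and -0.35 in the 3 sets. It was called higher with position correction only (limma adjusted p = 2.17e-04). Elovl6, which extends saturated chains, read 0.10 ± 0.0027 and was not called.

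The ratio of all genes shifted along the rows of the array, over which the members were spread unevenly. In the first of 4 bands of rows, the median log2 ratio of the 12 members there was -0.37, against -0.17 for all genes. In the fourth band it was 0.22 for 6 members, against 0.13 for all genes. With position correction the medians were -0.09 for members and 0.07 for all genes in the first band, and 0.06 for members and -0.03 for all genes in the fourth. Insig2, Cyp51 and Mvk lie at rows 21, 68 and 45, where the drift is towards lower ratios. Elovl5 and Me1 lie at rows 450 and 397, where it is towards higher ratios, and Acss2 and Tm7sf2 at rows 157 and 122, against the drift. All 7 were called with position correction, at the values given above, but the rule that picked them requires that call. It is therefore no separate check on the drift.

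**Figure D3:**
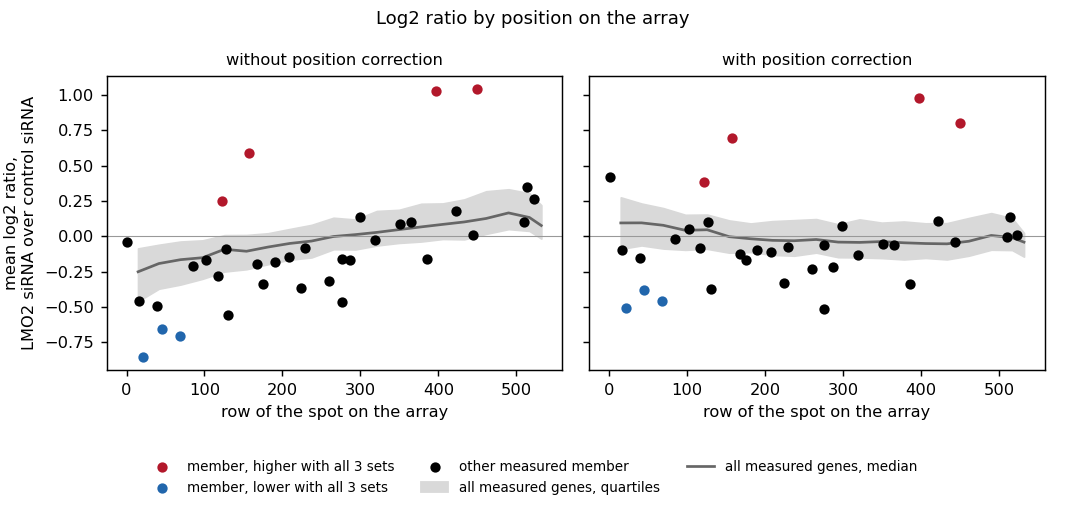
Mean log2 ratio of LMO2 siRNA over control siRNA against the row of the spot, without position correction (left) and with it (right), for the 35 measured members (points) and all measured genes (line for the median, band for the quartiles). The line climbs from the first rows to the last at left and is near 0 at right. The 7 coloured members lie outside the band at right, where a call was part of the rule that picked them.

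Several probes were in use for 19 members, and for 8 of them the probes differed in sign, or 7 with position correction. Counting probes and not genes, 37 of 66 member probes lay below 0 and 29 above, with a median log2 ratio of -0.04, and -0.08 with position correction. The brightest probe, which represents the gene, had the lowest ratio for Mvk, Cyp51, Insig2, Srebf2, Acaca, Fasn, Pmvk and Sc5d. It had the highest ratio for Elovl5, Me1, Acss2, Dhcr7, Hmgcs1, Idi1, Fdps and Hsd17b7, and lay between the others for Nsdhl, Lss and Stard4.

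**Figure D4:**
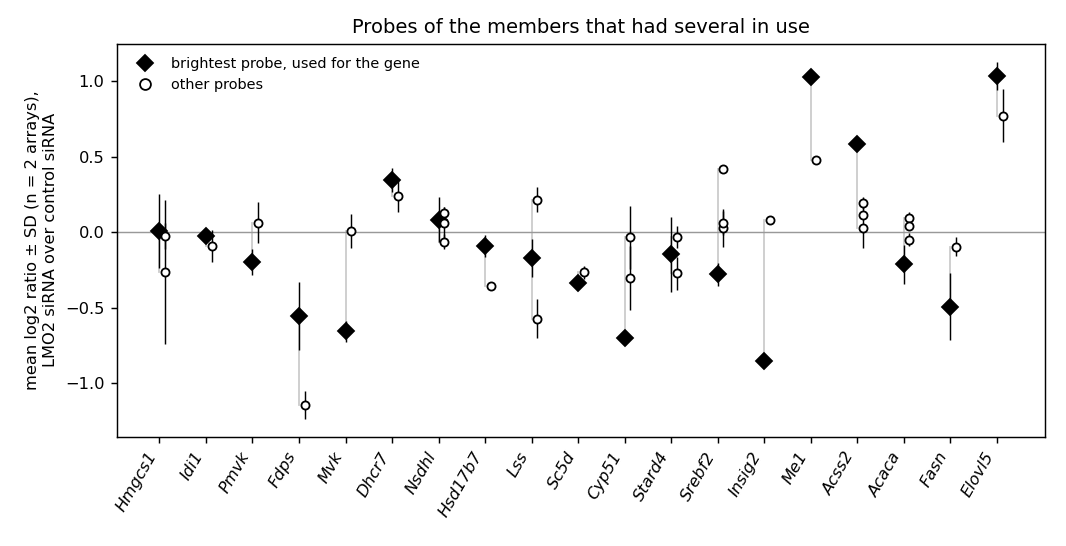
Mean log2 ratio ± SD (n = 2 arrays) of every probe in use for the 19 members that had several, with the brightest probe as a filled diamond and the others as open circles. Both probes of Elovl5 and of Me1 lie above 0 and both of Fdps below 0, while 1 probe each of Mvk and Insig2 lies near 0.

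Other lipid genes were counted by the same rule of 3 sets of values. Of all genes, 24.9% were called higher and 27.7% lower, and 6.37% rose and 2.4% fell. In sterol efflux, storage and the LXR pathway, 13 of 18 genes were measured, 4 were called higher and 6 lower, and 2 rose and 1 fell. Their median was -0.10, but 0.05 with position correction and 0.06 in processed signals. Abca1, the cholesterol efflux pump, read 236 and 205 units with LMO2 siRNA, against 119 and 101 units with control siRNA, at a log2 ratio of 1.0 ± 0.03 (limma adjusted p = 1.34e-19), and 0.78 with position correction. Soat1, which esterifies cholesterol for storage, read 503 and 429 units with LMO2 siRNA, against 223 and 266 units with control siRNA, at 0.93 ± 0.34, and its other probes read 0.35 and 0.40. Soat2, which also esterifies cholesterol and was chosen after its value was seen, fell by 0.43 ± 0.05. Of the SREBP processing and sterol-dependent degradation genes, 16 of 16 were measured, with 3 called higher, 6 lower and a median of -0.01, and 0 rose or fell by the rule. Of the isoprenoid, dolichol and ubiquinone branch genes, 15 of 16 were measured. Of these, 11 were called higher and 2 lower, with a median of 0.20, which was 0.06 with position correction, and 0 rose or fell. With median centring the medians of the 5 member groups lay between -0.85 and -0.55, and those of the other 6 lipid lists between -0.64 and -0.28, against -0.41 for all genes. That setting does not correct a shift of the ratio with brightness.

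Of 21 measured genes of 26 in the list of other fatty acid synthesis and activation genes, 13 were called higher and 2 lower, with a median of 0.16, and 3 rose. Acsl1, which activates long-chain fatty acids, rose by 0.62 ± 0.07 on the log2 scale, with other probes at 0.38 and 0.26. Elovl7, another elongase with a dim probe, rose by 0.57 ± 0.16, and by 1.75 in processed signals, while its other probe read -0.04. The mitochondrial citrate carrier gene Slc25a1, chosen after its value was seen, rose by 0.39 ± 0.04. In fatty acid oxidation, 22 of 23 genes were measured, 9 were called higher and 4 lower, and 4 rose and 0 fell. The median of that list was 0.01, but 0.13 with position correction and 0.18 in processed signals. Acaa2, the thiolase of the last step, rose by 0.72 ± 0.04 and Acadm, the medium-chain dehydrogenase, by 0.62 ± 0.02. Echs1 (0.26 ± 0.09) and Hadh (0.22 ± 0.03), also chosen after their values were seen, rose as well. In glycerolipid synthesis, 24 of 28 genes were measured, with 4 called higher, 4 lower and a median of 0.04. Pcyt1a, the rate-limiting enzyme of phosphatidylcholine synthesis, rose by 0.88 ± 0.05, although its other probe read -0.23. Lpin2, a phosphatidate phosphatase, fell by 0.54 ± 0.01, and its other probes read -0.07 each.

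**Figure D5:**
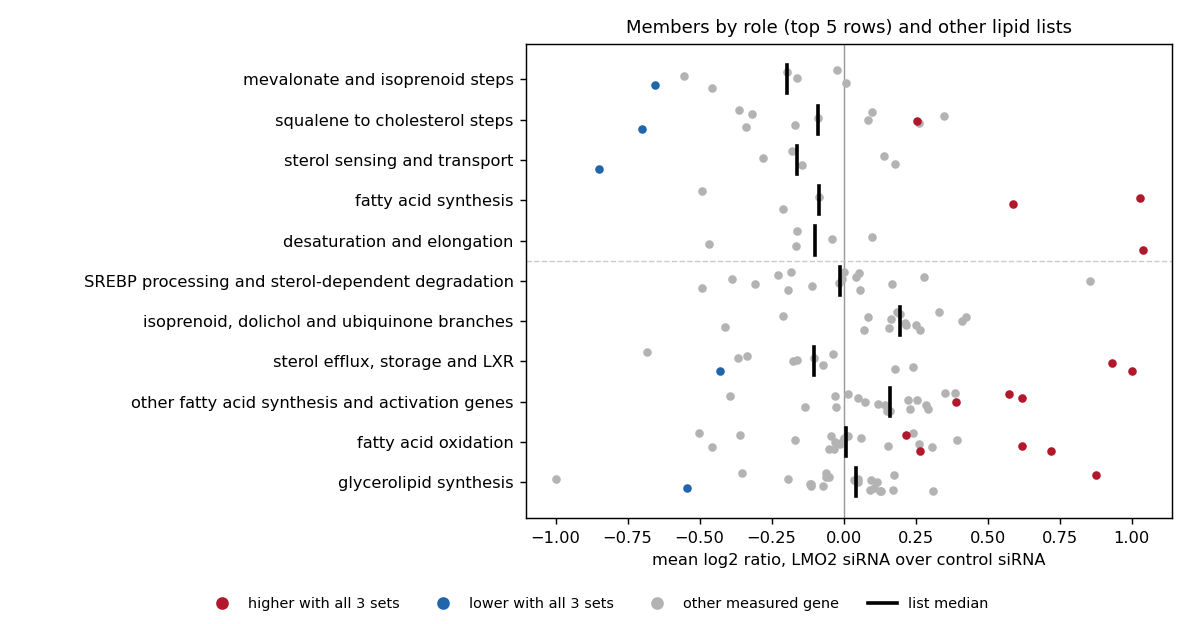
Mean log2 ratio of LMO2 siRNA over control siRNA for every measured gene of the 5 member groups (above the dashed line) and of 6 other lipid lists (below it), with a bar at each list's median. Medians run from -0.20 in the mevalonate steps to 0.20 in the isoprenoid branches, and red and blue points are genes called with all 3 sets of values.

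Markers of other cells that are rich in lipid synthesis were mostly not measured. For hepatocytes, 2 of 7 markers were measured, and they summed to 228 and 186 units with LMO2 siRNA against 251 and 217 units with control siRNA, with Alb, Apoa1, Ttr, Serpina1a and Fgb not well above background. For adipocytes, 3 of 6 were measured, at 438 and 369 units with LMO2 siRNA against 459 and 366 units with control siRNA, with Adipoq, Plin1 and Lep not well above background. For macrophages and granulocytes, 5 of 8 were measured, at 614 and 659 units with LMO2 siRNA against 584 and 619 units with control siRNA. Of these, Cd68 rose by 0.55 ± 0.05 and Ltf by 0.16 ± 0.02, while Csf1r, Itgam and Mpo were not called. The median log2 ratio of the 5 was -0.03, and Adgre1, Ly6g and Elane were not well above background. Any part of these cells in the results on the members was not tested.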

How the data were processed

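RNA of LMO2 siRNA cells (Cy3) and control siRNA cells (Cy5) was measured on 2 two-colour Agilent arrays of 1 slide, so slide could not be tested as a batch. The deposited scanner files hold, per the file headers, linear intensity values from Feature Extraction 9.1.3.1: mean signal, local background, and processed signals from which the scanner software had taken background, position and dye effects. They also hold the scanner's position factor as a ratio, per the file headers, and a deposited log10 ratio of red over green, which the series' own table repeats. The genome build behind the probes is not given here by the sources.

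Background was corrected with normexp (offset 50) and ratios were normalised by loess within each array in limma 3.58.1 (R 4.3.3), with control spots (1639) at weight 0, then left out, and turned to LMO2 siRNA over control siRNA. Position correction divided the background-corrected signals by the scanner's factor before loess. Processed signals were centred on the median of the probes in use. Of 41174 probes, 24844 were named by RefSeq accession, 7833 by the file's symbol and 1803 by an older name, and 6694 had no name. Probes had to be well above background in 1 or both channels on each array (24737 probes, 66 of the members' 71). Each gene's mean ratio was tested against 0 in limma with eBayes, on 1 residual degree of freedom and 43 prior ones (or 9.37 with position correction and 2.3 in processed signals), adjusted by Benjamini-Hochberg over 13948 genes at 0.05. A gene's p-value therefore rests mostly on variance pooled over genes. Scripts were tested on simulated data.

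Named genes are all members, Lmo2, and up to 2 genes per other lipid list with the largest log2 ratio among those that rose or fell. Soat2, Slc25a1, Echs1, Hadh, Cd68, Ltf and the other markers named fall outside that rule and were chosen after their values were seen. The members and the lists were chosen with earlier results of these data known. Alternatives covered background, position, normalization, filters, saturated and outlier spots, probe summary, variance prior, each array alone, a 1.5-fold threshold and the series' own table.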

Additional observations from a re-analysis of the deposited data

How the results depend on the processing

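Lmo2 stayed lower under every alternative run. An offset of 10 called 8 members higher and 14 lower, against 8 and 19, among 3677 and 3719 genes. The lower calls lost were Fads2, Lss, Mvd, Scd2 and Stard4. Processed signals called 4 members higher and 3 lower, among 1148 and 471 genes, with a member median log2 ratio of -0.0708. Position correction called 5 members higher and 10 lower, among 3359 and 2854 genes (median -0.0783). The series' own table called 3 members each way, among 957 genes higher and 469 lower (median -0.0961). Median centring called 2 members higher and 31 lower, among 421 and 9047 genes (median -0.77, against -0.41 for all genes). Unlike loess, this setting does not correct a shift of the ratio with brightness. Members were bright, with 28 of 35 brighter than the median gene and a median brightness percentile of 76.7. The part of brightness in their distance from -0.41 was not tested. The share of higher among all calls was 70.9% with processed signals, 67.1% with the series' table and 4.45% with median centring, against 47.3%. The mean over probes gave a member median of -0.0924. Single arrays gave member medians from -0.162 to -0.0791, and counts cannot be tested on 1 array. With 1.5-fold or more required on both arrays, 2 members were higher (Elovl5 and Me1) and 0 lower with all 3 sets of values. Of all 13948 genes, 215 were then higher and 28 lower, since that threshold removes smaller changes. With trended, robust variance 9 members were lower, adding Fads1, Fads2, Fdft1, Fdps, Sc5d and Sqle. Among all genes, that setting gave 1995 higher and 1577 lower. Centring processed signals over all spots, an alternative chosen after seeing the data, left 3 members higher, without Tm7sf2, and the same 3 lower. Among all genes it left 624 higher and 453 lower.

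Signs turned for Scd2 in processed signals (0.0782), with position correction (0.0539) and in the series' table (0.0530), for Scd1 with position correction (0.42), for Srebf2 over probes (0.0573) and for Stard4 without replicate 1 (0.0280). Of these, Scd1 was not called in the loess-normalised ratios, and several other members that were not called there turned too. Processed signals, position correction and the series' table turned Msmo1 (-0.0088, -0.0643, -0.0341), Nsdhl (-0.0367, -0.0525, -0.0620) and Hsd17b7 (0.11, 0.0993, 0.0871). Hmgcs1 turned with position correction (-0.0378), over probes (-0.0924) and in the series' table (-0.0163), and Elovl6 with position correction (-0.0043) and in the series' table (-0.0047). Median centring turned Hmgcs1 (-0.74), Tm7sf2 (-0.29), Msmo1 (-0.67), Nsdhl (-0.53), Ebp (-0.49), Dhcr7 (-0.32), Scap (-0.48), Npc1 (-0.22), Acss2 (-0.11), Elovl6 (-0.29) and Scd1 (0.0566), where the median of all genes was -0.41. Among 384 tested values of single members under alternatives, 288 kept direction and call, 62 lost the call, 4 gained it and 30 turned. Of 70 values from single arrays, which have no test, 3 turned. The cause of these changes was not tested beyond the construction of each alternative. The ratio within each array pairs both siRNA conditions, so each test of a mean ratio against 0 is a paired one, and no further block was left. Dim probes, near background, have the least certain ratios.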
